A study of Mus musculus with 10 samples.

Results

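Gene expression in aged and young wild-type peritoneal macrophages was compared across all genes of the deposited table. The comparison used 7 of the 10 libraries of the series: 4 labelled Young (replicates A, B, C and E) and 3 labelled Aged (replicates 3, 4 and 6), all of genotype Wild Type. The other 3 libraries, labelled Aged and Trem1-/-, entered only the shared estimate of the spread in a model of 3 groups. The table held 54532 genes, and 11506 of them averaged at least 10 normalized counts in the 10 libraries and entered the test. The labels name primary macrophages of the peritoneum and no treatment in any group. They give age only as Young or Aged, name no sex, isolation step or batch, and do not say whether a library holds 1 mouse, pooled mice or a repeat preparation. What a p-value weighs here is thus the spread among these samples, some of which may be technical.

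Most macrophages of the unstimulated peritoneal cavity are large resident cells that renew themselves in place and carry a tissue programme set by the transcription factor Gata6 and by retinoic acid. They take up dying cells and microbes, degrade them in acidic lysosomes, make coagulation factors and lipid mediators, and share the cavity with B-1 and B-2 lymphocytes, T cells, mast cells and small monocyte-derived macrophages. Ageing is known to change the cell makeup of the cavity as well as the macrophages themselves.

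Values are normalized read counts, listed in the order of replicates A, B, C and E for young and 3, 4 and 6 for aged libraries, or as mean ± SD (n = 4 young and 3 aged). Log2 fold changes are aged minus young on the scale log2(normalized count + 1), given with their standard error (SE). A gene is said to have risen or fallen where its limma p, adjusted over the 11506 genes, was under 0.05.

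The libraries held 2663744 to 5603498 recovered reads. No 2 replicates were alike within counting error, with a chi-square per degree of freedom of 4.94 to 12.2 among young and 10.1 to 25.2 among aged pairs. Thinned to 2500000 reads, the aged libraries held a read of 25006, 20432 and 23859 genes and the young ones 18133, 17924, 21828 and 19537. Olfactory and vomeronasal receptor genes, which macrophages are not known to use, had a read for 522, 154 and 505 of 1735 genes in aged and 56, 35, 347 and 207 in young libraries. The noncoding RNA Gm26917 took 8.38% to 12.9% of the reads of aged and 5.06% to 5.70% of young libraries, and mitochondrial transcripts took 3.17% to 5.26% and 1.19% to 2.13%. The part of these shares in the results was not tested.

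Markers of macrophages were present in every library, at levels that set the label beside those of lymphocytes. Per kilobase of exon, the macrophage receptor gene Csf1r stood at 763 ± 45.4 normalized counts in young and 351 ± 106 in aged libraries, and Cd68 at 692 ± 55.6 and 384 ± 150. The B cell receptor chain gene Cd79a stood at 180 ± 59.6 and 884 ± 206 per kilobase, above both macrophage genes in the aged mean, and the T cell gene Cd3e at 1.49 ± 1.13 and 8.36 ± 1.68. Per kilobase, Cd79a and Cd3e were higher, and Csf1r and Cd68 lower, in every aged library than in any young one. In bulk RNA, fewer cells of a type and less RNA per cell cannot be told apart. The part of lymphocyte RNA in the macrophage results below was not tested.

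Of the 11506 genes, 3837 (33.3%) were called: 1647 (14.3%) higher and 2190 (19.0%) lower in aged libraries. By more than 2-fold, 880 genes (7.65%) were higher and 834 (7.25%) lower. Every aged library lay above every young library in 2112 genes (18.4%) and below in 2525 (21.9%). These shares over all tested genes are the background for the counts of each list below. Calls depended on abundance: among genes with a mean under 20 normalized counts 14.5% were higher and 7.29% lower, and among those above 1000 the shares were 20.3% and 37.1%. The direction of the balance also depended on the scaling. With Gm26917, mitochondrial, immunoglobulin and globin genes left out of the total (the rescaled total), 2736 genes were higher and 1417 lower (65.9% of calls higher, against 42.9% as deposited), and the median of all genes moved from -0.02 to 0.17. Under TMM scaling 1389 were higher and 2564 lower, and the median was -0.09.

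**Figure D1:**
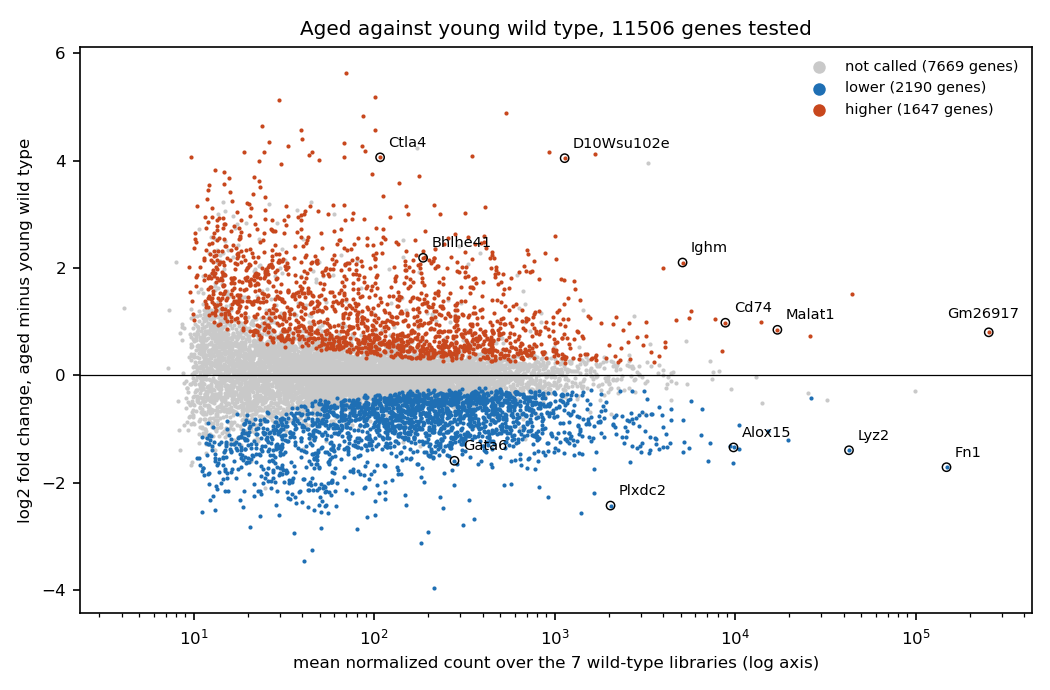
Log2 fold change (aged minus young wild type) against the mean normalized count over the 7 libraries (log axis) for the 11506 genes tested. Grey points were not called, 2190 blue points were lower and 1647 orange points higher, and Fn1 and Lyz2 stand among the most abundant genes on the lower side.

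Aged replicate 4 lay between the young libraries and the other aged libraries in most called genes. Among the 1647 genes called higher it was the aged library nearest to the young mean in 1037 (63.0%), and among the 2190 called lower in 1432 (65.4%). Aged replicate 3 was the farthest in 966 (58.7%) and 1388 (63.4%). Leaving out aged replicate 3 left 1593 genes called lower, and leaving out aged replicate 6 left 1170 called higher.

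**Figure D2:**
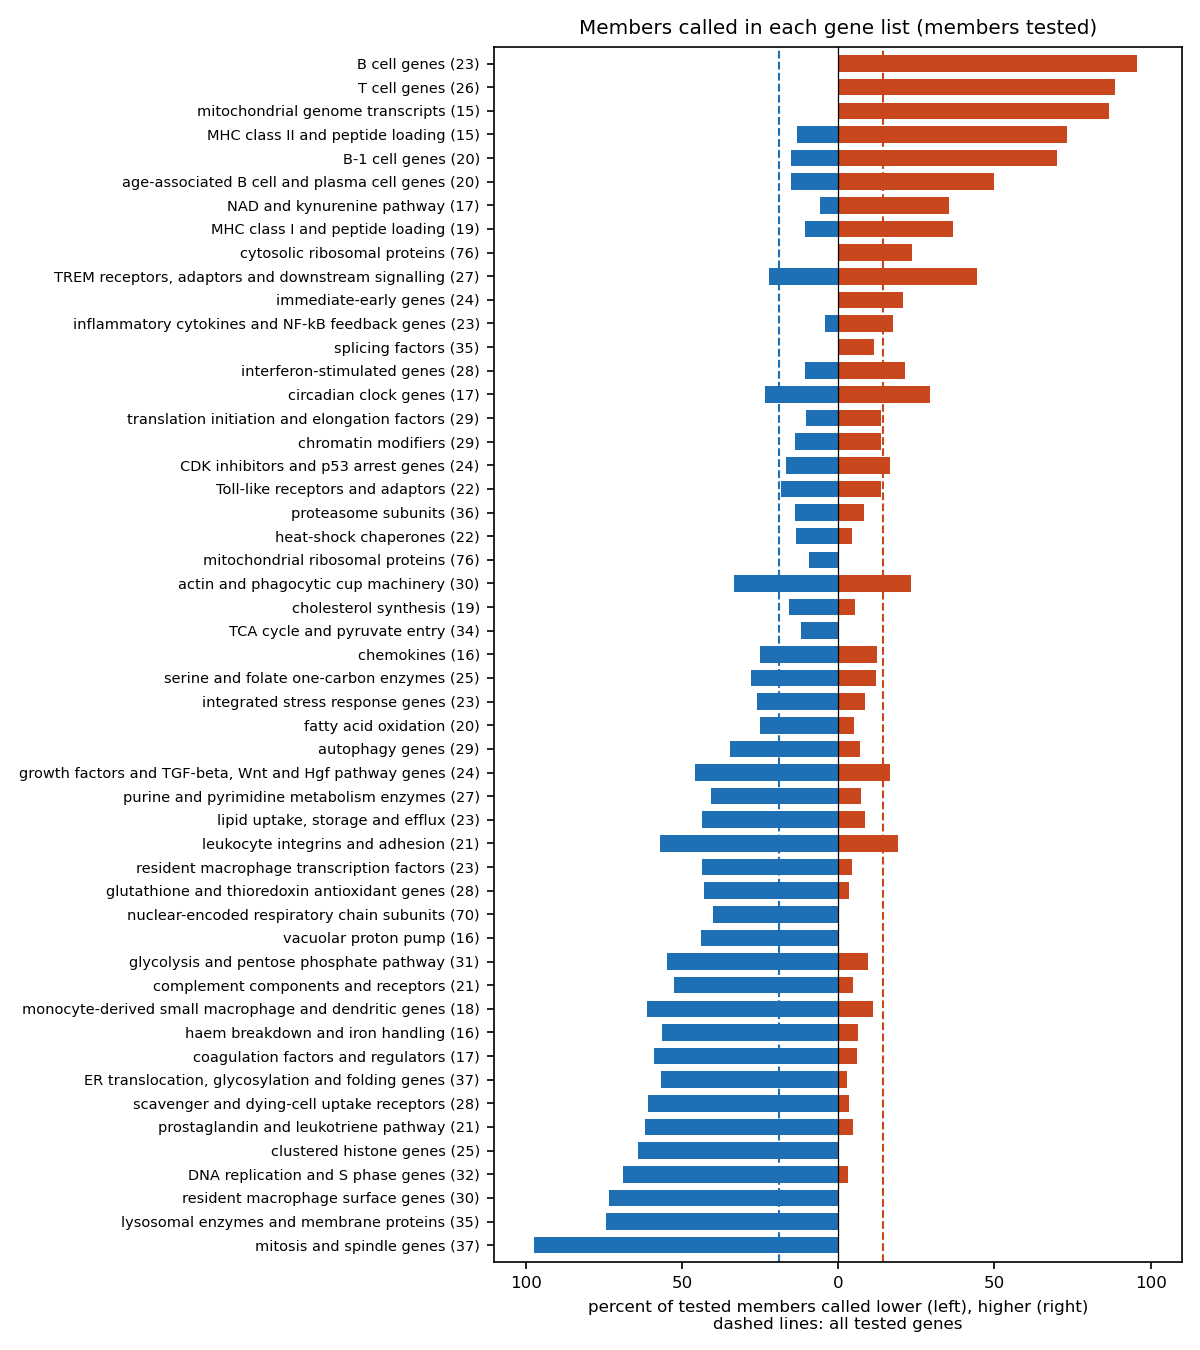
Percent of the tested members of each gene list called lower (blue, to the left) and higher (orange, to the right) in aged libraries, with the number of members tested in brackets. Dashed lines give the shares over all tested genes (19.0% lower and 14.3% higher), and the lists range from mitosis genes, nearly all lower, to B cell genes, nearly all higher.

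Several of the most abundant macrophage messages were lower in aged libraries. Fn1 (chr1:71585520-71653200, minus strand, GRCm38), which encodes the matrix glycoprotein fibronectin, was counted at 194605, 201352, 198935 and 247959 in the young and 47186, 75564 and 73228 in the aged libraries. Its log2 fold change was -1.71 ± 0.23 (SE; limma adjusted p = 3.75e-04), and the highest aged library reached less than the lowest young one. Lyz2 (chr10:117277331-117282321, minus strand), the macrophage lysozyme, stood at 54625, 56897, 59226 and 61447 in the young and 16977, 26847 and 23392 in the aged libraries, a change of -1.40 ± 0.18 (SE; limma adjusted p = 3.64e-04). Part of the Lyz2 sequence also occurs in other genes, so its reads could be split between them. Alox15 (chr11:70344152-70352031, minus strand), a lipoxygenase that oxidises arachidonic and linoleic acid and is typical of resident peritoneal macrophages, stood at 12588, 12886, 13644 and 13468 in the young and 3648, 6794 and 5581 in the aged libraries, with a change of -1.35 ± 0.18 (SE; limma adjusted p = 3.90e-04). The young libraries agreed closely for this gene and the aged ones were spread below them.

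Other genes with large losses in counts encode secreted, matrix and cytoskeletal proteins. Thrombospondin (Thbs1), a matrix protein that binds dying cells, was at 25977 ± 6554 in young and 11264 ± 3044 in aged libraries, and lubricin (Prg4) at 19369 ± 1469 in young and 9654 ± 2373 in aged libraries. Emilin2, an elastic-fibre glycoprotein, was counted at 12804, 13247, 13499.5 and 15331 in the young and 3493, 5188 and 4731 in the aged libraries, a change of -1.63 ± 0.14 (SE; limma adjusted p = 1.26e-04). Lrp1, a large endocytic receptor for apoptotic cells and protease complexes, stood at 14172, 14101, 13492 and 14836 in the young and 4276, 7228 and 5245 in the aged libraries and changed by -1.37 ± 0.15 (SE; limma adjusted p = 2.14e-04). Talin (Tln1), which ties integrins to actin, changed by -0.93 ± 0.11 (SE; limma adjusted p = 2.62e-04). None of these genes had an aged library above a young one, which was a condition of their choice. The largest losses in counts, that of Fn1 included, were ranked only among called genes without overlap between groups. Every aged library lay below every young one in 21.9% of all tested genes.

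**Figure D3:**
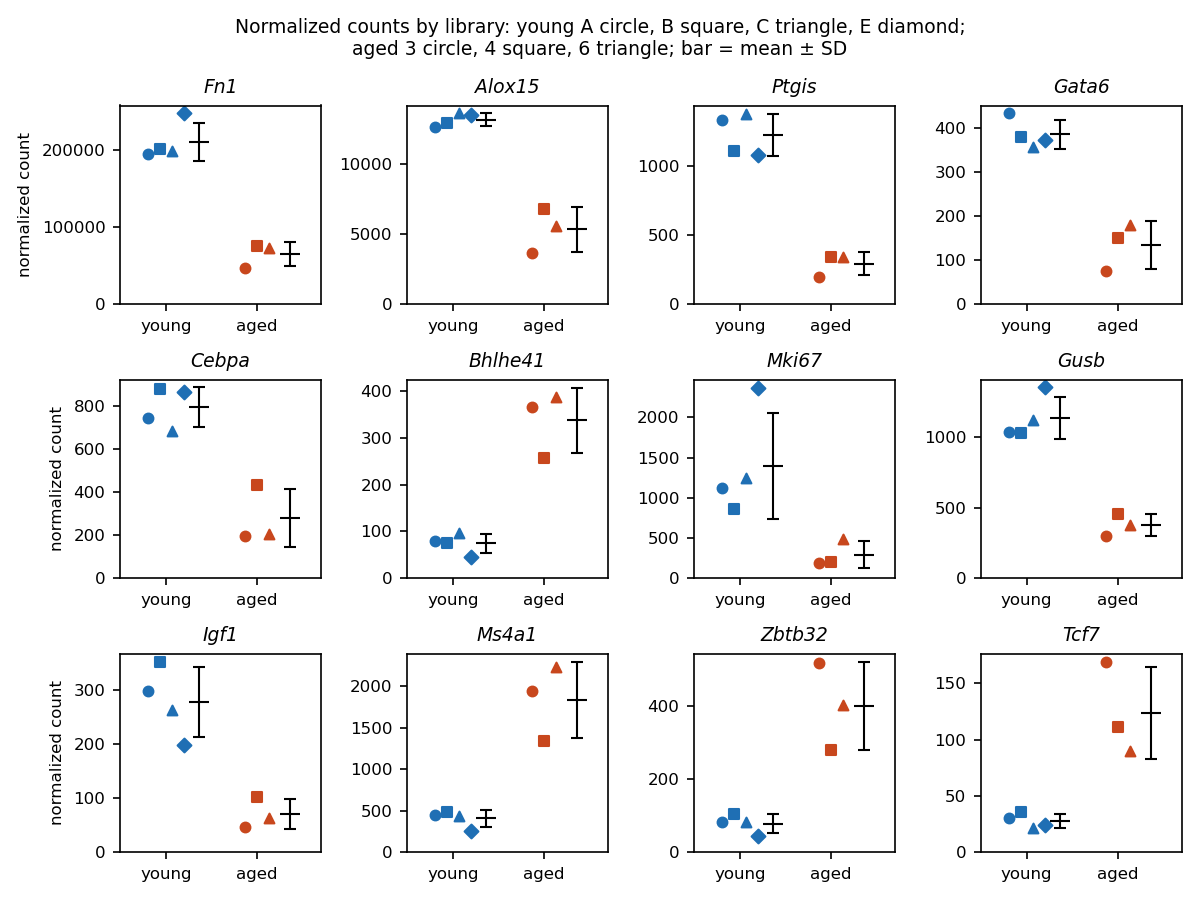
Normalized counts of 12 genes in each library (young in blue, replicates A circle, B square, C triangle, E diamond; aged in orange, replicates 3 circle, 4 square, 6 triangle), with the mean and SD as black bars and each axis starting at 0. Young and aged libraries do not overlap in any panel, with Fn1, Alox15, Ptgis, Gata6, Cebpa, Mki67, Gusb and Igf1 lower and Bhlhe41, Ms4a1, Zbtb32 and Tcf7 higher in aged libraries. The 12 genes were picked for display. Over all tested genes, every aged library lay above every young one in 18.4% and below in 21.9%.

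Transcription factors of resident macrophages were lower for nearly every member that was called. Of 23 members tested, 1 was called higher and 10 lower in aged libraries (median log2 fold change -0.65). Gata6, which sets the peritoneal identity, was counted at 434, 381, 358 and 373 in the young and 75.5, 151 and 179.7 in the aged libraries. It changed by -1.59 ± 0.23 (SE; limma adjusted p = 6.03e-04), with aged replicate 3 the lowest of all. Cebpa, a factor needed by resident macrophages, stood at 747, 878, 687 and 866 in the young and 198, 434 and 206 in the aged libraries and changed by -1.596 ± 0.23 (SE; limma adjusted p = 5.69e-04). Cebpb, a partner of it, changed by -1.30 ± 0.24 (SE; limma adjusted p = 0.0018), and Spi1, the master factor of myeloid cells, by -0.66 ± 0.12 (SE; limma adjusted p = 0.00174). Groups did not overlap for Gata6, Cebpa or Cebpb, whose exons overlap those of another annotated gene. Among resident macrophage transcription factors, the count called higher was 2 with all genes above 0 tested, 5 with the rescaled total, 3 by edgeR and 4 by DESeq2.

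Bhlhe41, which represses transcription in both resident macrophages and B-1 cells, went the other way. It was counted at 80.2, 76.4, 96.1 and 45.3 in the young and 366, 258 and 386 in the aged libraries, a change of 2.19 ± 0.36 (SE; limma adjusted p = 0.001). All aged libraries lay above all young ones. The number of factors called higher was 2 without aged replicate 3 and 4 without aged replicate 4. Members of the list that also mark lymphocytes were not removed from it.

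Surface genes of resident macrophages showed no member higher. Of 30 members tested, 0 were called higher and 22 lower in aged libraries (median log2 fold change -0.997). Icam2, the adhesion molecule used to gate large peritoneal macrophages, was counted at 1367, 1292, 1644 and 1762 in the young and 521, 837 and 649 in the aged libraries, a change of -1.20 ± 0.16 (SE; limma adjusted p = 4.28e-04). Timd4, a receptor for phosphatidylserine on dying cells that marks long-lived resident cells, stood at 1781, 1741, 1943 and 718 in the young and 346, 839 and 513 in the aged libraries and changed by -1.44 ± 0.37 (SE; limma adjusted p = 0.012). Young replicate E lay below aged replicate 4 for Timd4, and its adjusted p was 0.0577 without aged replicate 3. Itga6, an integrin subunit for laminin, was counted at 6775, 6484, 7216 and 9391 in the young and 2122, 3454 and 3327 in the aged libraries, a change of -1.35 ± 0.19 (SE; limma adjusted p = 4.60e-04). The integrin alpha chain of complement receptor 3, Itgam, changed by -1.26 ± 0.20 (SE; limma adjusted p = 9.75e-04), though most of its sequence is shared with another annotated gene.

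Genes of small monocyte-derived macrophages and dendritic cells were lower in most members as well. Of 18 members tested, 2 were called higher and 11 lower in aged libraries (median log2 fold change -1.18). Ccr2, the chemokine receptor by which monocytes enter tissue, was counted at 396, 510.5, 404 and 377 in the young and 191, 201 and 159 in the aged libraries, a change of -1.19 ± 0.14 (SE; limma adjusted p = 2.63e-04). The C-type lectin gene Mgl2, a marker of conventional dendritic cells and alternatively activated macrophages, stood at 71.5, 84.4, 96.1 and 92.98 in the young and 10.2, 19.6 and 12.6 in the aged libraries and changed by -2.56 ± 0.57 (SE; limma adjusted p = 0.0053). Irf4, which both small macrophages and B cells use, had 330.3, 342, 235 and 214 in the young and 408, 322 and 547 in the aged libraries (change 0.60 ± 0.23 (SE; limma adjusted p = 0.0693)), with an adjusted p of 0.0258 without aged replicate 4. Plac8, a member called higher (1.95 ± 0.31 (SE; limma adjusted p = 9.23e-04)), is also expressed by lymphocytes. Ccr2 and Mgl2 had no overlap between groups. For Irf4 the adjusted p was 0.0293 with the rescaled total and 0.039 by DESeq2.

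Enzymes and receptors of prostaglandin and leukotriene signalling were mostly lower. Of 21 members tested, 1 was called higher and 13 lower in aged libraries (median log2 fold change -1.07). Ptgis, which makes prostacyclin, was counted at 1327, 1108, 1376 and 1079.7 in the young and 199.7, 344 and 339 in the aged libraries, a change of -2.09 ± 0.19 (SE; limma adjusted p = 1.26e-04). Ptgs1, the constitutive cyclooxygenase that feeds it, stood at 1012, 1088, 1028 and 1191 in the young and 209.9, 731 and 434 in the aged libraries and changed by -1.41 ± 0.31 (SE; limma adjusted p = 0.00513). Aged replicate 4 kept more of the young level of Ptgs1 than of Ptgis. The prostacyclin receptor gene Ptgir changed by -1.69 ± 0.22 (SE; limma adjusted p = 3.36e-04).

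On the leukotriene side, 5-lipoxygenase (Alox5) changed by -1.26 ± 0.21 (SE; limma adjusted p = 0.0011) and its activating protein (Alox5ap) by -1.36 ± 0.13 (SE; limma adjusted p = 1.26e-04). Leukotriene C4 synthase (Ltc4s) changed by -1.24 ± 0.24 (SE; limma adjusted p = 0.00267), and the leukotriene B4 receptor (Ltb4r1) by -1.86 ± 0.42 (SE; limma adjusted p = 0.00566). The cytosolic phospholipase Pla2g4a, which frees arachidonic acid for both branches, changed by -1.27 ± 0.21 (SE; limma adjusted p = 0.00118). These 5 genes and Ptgir were named after their values were seen. The thromboxane receptor gene Tbxa2r was the 1 member called higher, at 5.62 ± 3.34 in young and 24.6 ± 11.6 in aged libraries, and the count called higher was 0 without aged replicate 3 and 2 without young replicate C.

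Coagulation genes, which resident peritoneal macrophages express to form clots around microbes, were lower in most members. Of 17 members tested, 1 was called higher and 10 lower in aged libraries (median log2 fold change -0.94). F10, the factor X gene, was counted at 1639, 1375, 1697 and 2274 in the young and 547, 1146 and 844 in the aged libraries, a change of -1.09 ± 0.24 (SE; limma adjusted p = 0.00486). Pros1, the gene of protein S that limits clotting and bridges dying cells to phagocytes, changed by -1.44 ± 0.17 (SE; limma adjusted p = 2.78e-04). Serpinb2, an inhibitor of plasminogen activators, stood at 1489, 1379, 1795 and 2068 in the young and 781, 706 and 1185 in the aged libraries and changed by -0.94 ± 0.21 (SE; limma adjusted p = 0.00504). F11r, a junctional adhesion gene of epithelia and platelets, was the 1 member called higher (2.64 ± 3.21 in young and 57.2 ± 24.7 in aged libraries). Among coagulation factors and regulators, the count called higher was 2 with the 7 wild-type libraries alone and 2 by DESeq2.

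Complement genes that were called were lower except for a regulator. Of 21 members tested, 1 was called higher and 11 lower in aged libraries (median log2 fold change -0.72). C1qa and C1qb, chains of the recognition molecule C1q, stood at 3529.7, 3898, 3728 and 3283 in the young and 1114, 2089.7 and 1269 in the aged libraries and at 4441, 4786, 5063 and 5129.97 in the young and 1596, 2790.3 and 1806 in the aged libraries. They changed by -1.33 ± 0.20 (SE; limma adjusted p = 6.22e-04) and -1.27 ± 0.17 (SE; limma adjusted p = 3.61e-04). Properdin (Cfp), which stabilises the alternative pathway convertase, was counted at 4395, 4569, 4481 and 4903 in the young and 1254, 2276 and 1892 in the aged libraries, a change of -1.38 ± 0.18 (SE; limma adjusted p = 3.36e-04). All 3 had aged replicate 4 as the highest aged library, still below every young one. Cd55, which speeds decay of the convertases, was counted at 186, 173, 132 and 89.5 in the young and 649, 358 and 643 in the aged libraries, a change of 1.92 ± 0.28 (SE; limma adjusted p = 6.24e-04), and the count called higher was 2 without aged replicate 3. Among complement components and receptors, the count called higher was 2 with all genes above 0 tested, 2 with the rescaled total and 2 by DESeq2.

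Receptors for modified lipoproteins, haptoglobin and dying cells were lower in most members. Of 28 members tested, 1 was called higher and 17 lower in aged libraries (median log2 fold change -0.97). The class A receptor Msr1 was counted at 1950.5, 1912, 1812 and 2403 in the young and 654, 1251 and 908 in the aged libraries, a change of -1.15 ± 0.18 (SE; limma adjusted p = 9.25e-04). Stab1, a receptor for phosphatidylserine and hyaluronan, stood at 462, 592, 796 and 336 in the young and 56.3, 206 and 44.9 in the aged libraries and changed by -2.67 ± 0.47 (SE; limma adjusted p = 0.00146). Marco, a receptor for bacteria and particles, had 1057, 687, 871 and 490.4 in the young and 346, 856 and 179 in the aged libraries (change -0.99 ± 0.53 (SE; limma adjusted p = 0.17)), and its adjusted p was 0.0227 without aged replicate 4. Cd300lf, an inhibitory lipid-binding receptor that B-1 cells also express, was counted at 20.9, 36.9, 38.4 and 19.8 in the young and 108, 333 and 300.1 in the aged libraries, a change of 2.95 ± 0.37 (SE; limma adjusted p = 3.14e-04). With 1 library left out, the count called lower was 11 without aged replicate 3, and the count called higher 2 without aged replicate 4. Among scavenger and dying-cell uptake receptors, the count called higher was 2 with the 7 wild-type libraries alone.

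Toll-like receptor genes were called near the background in both directions. Of 22 members tested, 3 were called higher and 4 lower in aged libraries (median log2 fold change -0.23). These shares, 13.6% and 18.2%, stood beside 14.3% and 19.0% of all tested genes. Tlr13, the endosomal receptor for bacterial ribosomal RNA, was counted at 533, 515, 715 and 678 in the young and 155, 321 and 252 in the aged libraries, a change of -1.37 ± 0.23 (SE; limma adjusted p = 0.00106). Tlr9, the endosomal receptor for CpG DNA that B cells carry at high level, stood at 94.997, 95.4, 74.5 and 37.2 in the young and 416, 219 and 288 in the aged libraries and changed by 2.05 ± 0.33 (SE; limma adjusted p = 0.001). Tlr1, a partner of Tlr2 on the cell surface, changed by 0.93 ± 0.18 (SE; limma adjusted p = 0.00263). Tlr2 itself had 201, 139, 162 and 243 in the young and 145, 93.8 and 173 in the aged libraries (change -0.45 ± 0.32 (SE; limma adjusted p = 0.31)). Tlr7 and Tlr8, endosomal sensors of single-stranded RNA, changed by -0.79 and -0.84 on the log2 scale. Leaving out single libraries set the count called lower at 9 without aged replicate 4.

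Fc receptor genes were called in both directions. Of 9 members tested, 3 were called higher and 3 lower in aged libraries (median log2 fold change 0.03), and the median was -0.039 under TMM scaling. Fcer1g, the common signalling chain, was counted at 410.5, 434, 479 and 444 in the young and 154, 313 and 217 in the aged libraries, a change of -1.01 ± 0.19 (SE; limma adjusted p = 0.00211). Fcmr, the receptor for IgM on B cells, stood at 149, 167, 109 and 54.6 in the young and 1379.8, 366 and 607 in the aged libraries and changed by 2.60 ± 0.48 (SE; limma adjusted p = 0.00187). Aged replicate 3 held far more Fcmr than the other aged libraries. Fcgr4, an activating IgG receptor of myeloid cells, was higher (1.08 ± 0.34 (SE; limma adjusted p = 0.0308)), with an adjusted p of 0.10 without aged replicate 4, 0.0658 without young replicate A, 0.0678 without young replicate B and 0.0658 without young replicate E, and the inhibitory receptor Fcgr2b had 670.2 ± 56.4 in young and 893 ± 232 in aged libraries (change 0.38 ± 0.21 (SE; limma adjusted p = 0.19)). Members called lower numbered 1 without aged replicate 3 and 1 without aged replicate 6. For Fcgr2b the adjusted p was 0.0459 with the rescaled total.

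Integrin and adhesion genes were called in both directions. Of 21 members tested, 4 were called higher and 12 lower in aged libraries (median log2 fold change -0.74). Members called higher included Pecam1 (1.996), Itgal (1.65) and Itgb7 (1.05), by log2 fold change. Pecam1, the adhesion molecule CD31 of endothelium, platelets and leukocytes, was counted at 114, 119, 104 and 46.5 in the young and 475, 248 and 407 in the aged libraries, a change of 1.996 ± 0.33 (SE; limma adjusted p = 0.0011). Itga5, the fibronectin receptor subunit, stood at 172, 156, 136 and 202 in the young and 65.3, 117 and 117 in the aged libraries and changed by -0.77 ± 0.21 (SE; limma adjusted p = 0.0168), with an adjusted p of 0.0615 without aged replicate 3. The 2 groups did not overlap for Pecam1 or for Itga5.

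The actin machinery was mixed. Of 30 members tested, 7 were called higher and 10 lower in aged libraries (median log2 fold change -0.20). The long-tailed myosin Myo1f, which links membrane to actin in phagocytes, was counted at 982, 987, 1026 and 984 in the young and 356, 595 and 446 in the aged libraries, a change of -1.13 ± 0.15 (SE; limma adjusted p = 4.41e-04). Its 4 young libraries were nearly equal. Coro1a, a coronin abundant in lymphocytes, stood at 729, 790.03, 747 and 506 in the young and 2496, 1774 and 2079.8 in the aged libraries and changed by 1.62 ± 0.20 (SE; limma adjusted p = 3.15e-04). Subunits of the Arp2/3 complex called lower were Arpc5 (-0.63), Arpc1b (-0.62) and Arpc4 (-0.52), by log2 fold change. The count of members called lower became 6 without aged replicate 6. Among actin and phagocytic cup machinery genes, the count called lower was 5 with the rescaled total.

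Genes of TREM receptors, their adaptors and downstream kinases moved in both directions. Of 27 members tested, 12 were called higher and 6 lower in aged libraries (median log2 fold change 0.19). Trem1, the activating receptor deleted in the third group of the series, was counted at 14.8, 8.005, 12.01 and 24.4 in the young and 63.996, 15.3 and 26.95 in the aged libraries (change 1.07 ± 0.65 (SE; limma adjusted p = 0.23)), and the aged and young libraries overlapped. Trem2, the lipid-sensing receptor, stood at 56.6, 80.7, 68.5 and 60.4 in the young and 17.9, 40.4 and 13.5 in the aged libraries and changed by -1.58 ± 0.44 (SE; limma adjusted p = 0.0181), with an adjusted p of 0.0634 without aged replicate 3 and 0.0819 without aged replicate 6. Card9, an adaptor that carries signals of C-type lectins to NF-kB, was counted at 262, 318, 300.2 and 255 in the young and 67.8, 159 and 104 in the aged libraries, a change of -1.43 ± 0.24 (SE; limma adjusted p = 0.0012). Tyrobp, the adaptor DAP12, changed by -1.24 ± 0.15 (SE; limma adjusted p = 2.62e-04). Nfatc1, a calcium-responsive factor of lymphocytes and myeloid cells, stood at 534, 573, 488 and 432 in the young and 2662, 1177 and 1689 in the aged libraries and changed by 1.79 ± 0.26 (SE; limma adjusted p = 6.01e-04). Treml2, a relative of Trem1 that B cells carry, changed by 2.12 ± 0.45 (SE; limma adjusted p = 0.00407).

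Lysosomal genes were lower in most members, and none was higher on the deposited scale. Of 35 members tested, 0 were called higher and 26 lower in aged libraries (median log2 fold change -0.75). Every aged library lay below every young one in 27 of them, beside 21.9% of all tested genes. Gusb, the enzyme beta-glucuronidase, was counted at 1041, 1033, 1120.5 and 1357 in the young and 303, 455 and 377 in the aged libraries, a change of -1.596 ± 0.16 (SE; limma adjusted p = 1.26e-04). Cathepsin A (Ctsa) stood at 1606, 1661, 1619 and 1514 in the young and 777, 1305 and 825 in the aged libraries and changed by -0.76 ± 0.16 (SE; limma adjusted p = 0.00351). Cathepsin B (Ctsb) was counted at 5219, 5266, 5666 and 5178 in the young and 2328, 4909 and 2295 in the aged libraries, a change of -0.84 ± 0.22 (SE; limma adjusted p = 0.0131), and its adjusted p was 0.0592 without aged replicate 3 and 0.0658 without aged replicate 6. Aged replicate 4 held nearly the young level of Ctsb and stood apart from the other aged libraries. For the whole list the mean log2 level relative to the young mean was -0.014, -0.013, 0.03 and -0.003 in the young and -0.91, -0.30 and -0.77 in the aged libraries. Among lysosomal enzymes and membrane proteins, the count called higher was 1 with the rescaled total and 1 by DESeq2.

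The proton pump that acidifies lysosomes had fewer calls. Of 16 members tested, 0 were called higher and 7 lower in aged libraries (median log2 fold change -0.41). Atp6v1a, the catalytic subunit, was counted at 462, 437, 429.9 and 446 in the young and 212, 318 and 241 in the aged libraries, a change of -0.81 ± 0.13 (SE; limma adjusted p = 9.95e-04). Atp6v0b, a proteolipid of the membrane ring, stood at 185, 209, 197 and 212 in the young and 97.3, 157 and 122 in the aged libraries and changed by -0.70 ± 0.16 (SE; limma adjusted p = 0.00617). Neither gene had an aged library within the range of the young ones.

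Lysosomal promoters were read for the CACGTG letters, a form of the E-box, because the factors Tfeb, Tfe3 and Mitf bind such elements. In windows of 250 bases before to 50 after the start site (RefSeq, GRCm38.p6), CACGTG on either strand occurred in 9 of 27 lysosomal genes with a window (33.3%) and 4 of 12 proton pump genes. It occurred in 7.24% of all 27025 promoters and 10.5% of those of tested genes. Genes called lower in aged libraries held CACGTG in 10.3% and genes called higher in 10.5%. Of the called lysosomal genes, 6 of 21 (28.6%) held CACGTG. Both lysosomal genes shown were chosen as the called members with the largest fold change that held it before the start site, and capitals mark it.
Glb1: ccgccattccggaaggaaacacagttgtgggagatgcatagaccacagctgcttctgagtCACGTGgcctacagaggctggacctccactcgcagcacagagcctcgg
Naglu: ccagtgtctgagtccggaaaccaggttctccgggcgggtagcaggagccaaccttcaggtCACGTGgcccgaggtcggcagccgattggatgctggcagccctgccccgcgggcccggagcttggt
The Glb1 stretch is chr9:114400970-114401077, plus strand, and the Naglu stretch chr11:101069961-101070086, plus strand. Glb1 encodes beta-galactosidase and was counted at 514, 497, 554 and 575 in the young and 149.8, 292 and 226 in the aged libraries, a change of -1.31 ± 0.18 (SE; limma adjusted p = 4.32e-04). Naglu, an enzyme of heparan sulfate breakdown, stood at 315, 349.8, 367 and 359 in the young and 115, 181 and 174 in the aged libraries and changed by -1.17 ± 0.15 (SE; limma adjusted p = 3.67e-04). Of the factors themselves, Tfeb was counted at 119, 115, 115 and 117 in the young and 275, 149 and 175 in the aged libraries, a change of 0.72 ± 0.19 (SE; limma adjusted p = 0.0124), and Tfe3 changed by -0.70 ± 0.11 (SE; limma adjusted p = 7.53e-04), in the opposite direction.

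Autophagy genes outside the lysosome were lower in part on the deposited scale, though most were not called. Shares were 34.5% lower and 6.90% higher, beside 19.0% and 14.3% of all tested genes. Of 29 members tested, 2 were called higher and 10 lower in aged libraries (median log2 fold change -0.10), and with the rescaled total the median was 0.095. Wipi1, a phosphoinositide-binding protein of early autophagosomes, was counted at 69.7, 74.5, 78.1 and 81.4 in the young and 20.5, 39.3 and 36.8 in the aged libraries, a change of -1.26 ± 0.22 (SE; limma adjusted p = 0.00145). The ATG8 relatives Gabarapl1 and Map1lc3a changed by -1.23 ± 0.30 (SE; limma adjusted p = 0.008) and -0.81 ± 0.19 (SE; limma adjusted p = 0.00645). With 1 library left out, the count called lower was 5 without aged replicate 6. Among autophagy genes, the count called higher was 5 with the rescaled total, and the count called lower was 5 with the rescaled total.

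Genes of lipid uptake and storage were mostly lower where called. Of 23 members tested, 2 were called higher and 10 lower in aged libraries (median log2 fold change -0.42). Fabp5, a fatty-acid-binding protein, changed by -1.599 ± 0.32 (SE; limma adjusted p = 0.00284). The fatty acid receptor Cd36 changed by -0.999 ± 0.20 (SE; limma adjusted p = 0.00273). Apoc1, an apolipoprotein with few counts, stood at 76.7, 71.4, 129.7 and 16.3 in the young and 2.56, 17.5 and 2.70 in the aged libraries, a change of -3.26 ± 0.72 (SE; limma adjusted p = 0.00518). Dgat1, which makes triglyceride, was higher (0.90 ± 0.16 (SE; limma adjusted p = 0.00174)).

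Cholesterol synthesis was mostly not called. Of 19 members tested, 1 was called higher and 3 lower in aged libraries (median log2 fold change -0.30). Srebf2, the factor that switches on the pathway, was counted at 429, 504, 480.4 and 396 in the young and 1279.9, 816 and 726 in the aged libraries, a change of 1.02 ± 0.17 (SE; limma adjusted p = 0.00112). Its sterol sensor partner Insig1 and the enzyme Mvd changed by -0.68 ± 0.14 (SE; limma adjusted p = 0.00371) and -0.83 ± 0.19 (SE; limma adjusted p = 0.00706). The aged libraries of Srebf2 lay above all young ones.

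Fatty acid oxidation and haem handling were lower in part. Of 20 members tested, 1 was called higher and 5 lower in aged libraries (median log2 fold change -0.29), and the count called lower was 3 without aged replicate 3, 9 without aged replicate 4, 2 without aged replicate 6, 3 without young replicate A and 3 without young replicate E. Cpt1a, which carries fatty acids into mitochondria, was counted at 694, 616, 687 and 654 in the young and 483, 495 and 311 in the aged libraries, a change of -0.65 ± 0.17 (SE; limma adjusted p = 0.0131), with an adjusted p of 0.055 without aged replicate 6. For haem and iron, of 16 members tested, 1 was called higher and 9 lower in aged libraries (median log2 fold change -0.71). Hmox1, the haem-degrading oxygenase, stood at 291, 271, 279 and 389 in the young and 105, 208 and 106 in the aged libraries and changed by -1.19 ± 0.25 (SE; limma adjusted p = 0.00406). Bach1, the haem-sensing repressor of Hmox1, fell as well, at 858, 760.5, 815 and 812 in the young and 302, 369.9 and 344 in the aged libraries, a change of -1.26 ± 0.17 (SE; limma adjusted p = 4.07e-04). The iron exporter of phagosomes Slc11a1 changed by -1.07 ± 0.21 (SE; limma adjusted p = 0.00247), and the transferrin receptor Tfrc was higher (0.82 ± 0.15 (SE; limma adjusted p = 0.00184)). Among fatty acid oxidation genes, the count called lower was 3 with all genes above 0 tested and 1 with the rescaled total. Among haem breakdown and iron handling genes, the count called higher was 2 with the rescaled total. For Cpt1a the adjusted p was 0.0514 with the rescaled total.

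Chemokine genes differed in direction by member. Of 16 members tested, 2 were called higher and 4 lower in aged libraries (median log2 fold change -0.71). These shares, 12.5% and 25%, stood beside 14.3% and 19.0% of all tested genes. Cxcl12, which holds lymphocytes and stem cells in tissue, was counted at 91.5, 101, 96.1 and 47.7 in the young and 7.68, 28.4 and 22.5 in the aged libraries, a change of -2.17 ± 0.41 (SE; limma adjusted p = 0.00232). Pf4, a chemokine of platelets and resident macrophages, stood at 1977, 2033, 2416 and 2907 in the young and 438, 994 and 740.3 in the aged libraries and changed by -1.75 ± 0.30 (SE; limma adjusted p = 0.00144). Cxcl13, the B cell chemoattractant that peritoneal macrophages make, was counted at 875, 1054, 462 and 436 in the young and 1471, 1727 and 1399 in the aged libraries, a change of 1.22 ± 0.36 (SE; limma adjusted p = 0.0235), with an adjusted p of 0.0563 without aged replicate 3, 0.0514 without aged replicate 4, 0.0533 without aged replicate 6, 0.0642 without young replicate C and 0.0665 without young replicate E. Ccl5, a product of T and NK cells, changed by 3.05 ± 0.53 (SE; limma adjusted p = 0.00142). Cxcl1, a neutrophil attractant induced by handling and by infection, had 337, 51.1, 28.8 and 406 in the young and 75.5, 17.5 and 93.4 in the aged libraries (change -1.24 ± 0.98 (SE; limma adjusted p = 0.36)) and varied more within groups than between them. Leaving out single libraries set the count called higher at 1 without aged replicate 3, 1 without aged replicate 6, 1 without young replicate C and 1 without young replicate E.

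Il1b and Tnf, the leading inflammatory cytokine genes of macrophages, were not called, while 4 NF-kB genes were higher, near the background share. Of 23 members tested, 4 were called higher and 1 lower in aged libraries (median log2 fold change 0.13). That is 17.4% higher and 4.35% lower, beside 14.3% and 19.0% of all tested genes. Il1b, the gene of interleukin-1 beta, had 64.5, 19.1, 32.4 and 44.2 in the young and 159.99, 48.01 and 119 in the aged libraries (change 1.39 ± 0.76 (SE; limma adjusted p = 0.18)), and Tnf had 44.4, 12.3, 10.8 and 105 in the young and 23.04, 7.64 and 31.4 in the aged libraries (change -0.64 ± 0.85 (SE; limma adjusted p = 0.59)). Both spread several-fold within each group. The members called higher encode NF-kB subunits and a regulator: Nfkbid (1.27), Relb (0.92), Rel (0.84) and Nfkb1 (0.39), by log2 fold change. Rel alone stayed called whichever of the 7 libraries was left out. Nfkbid was counted at 145, 91.1, 90.1 and 141 in the young and 357, 125 and 463 in the aged libraries, a change of 1.27 ± 0.37 (SE; limma adjusted p = 0.0228), with an adjusted p of 0.0905 without aged replicate 3, 0.11 without aged replicate 6, 0.0541 without young replicate B and 0.0589 without young replicate C. Members called higher numbered 1 without aged replicate 3, 1 without aged replicate 6 and 1 without young replicate C, and the count called lower 2 without young replicate B and 2 without young replicate C. Among inflammatory cytokines and NF-kB feedback genes, the count called lower was 2 under TMM scaling, 0 with the rescaled total and 2 by DESeq2. For Il1b the adjusted p was 0.0452 with the 7 wild-type libraries alone. For Nfkb1 the adjusted p was 0.0613 with all genes above 0 tested, 0.0611 under TMM scaling and 0.0536 with the 7 wild-type libraries alone.

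Interferon-stimulated genes were near the background in both directions. Of 28 members tested, 6 were called higher and 3 lower in aged libraries (median log2 fold change 0.016), and under TMM scaling the median was -0.053. Ifit2, an RNA-binding antiviral protein, was counted at 9.59, 9.24, 14.4 and 13.9 in the young and 30.7, 30.6 and 34.1 in the aged libraries, a change of 1.38 ± 0.38 (SE; limma adjusted p = 0.0159), with an adjusted p of 0.0562 without aged replicate 6. Igtp, a GTPase of vacuole defence, stood at 61.01, 48.6, 73.3 and 46.5 in the young and 95.99, 97.1 and 137 in the aged libraries and changed by 0.93 ± 0.19 (SE; limma adjusted p = 0.00359). Bst2, which tethers budding virus, changed by -1.03 ± 0.19 (SE; limma adjusted p = 0.00188). The count of members called higher became 2 without aged replicate 6.

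Several secreted growth factors were among the genes called lower. Of 24 members tested, 4 were called higher and 11 lower in aged libraries (median log2 fold change -0.43). Igf1, insulin-like growth factor, was counted at 297, 352, 263 and 198 in the young and 47.4, 103 and 62.9 in the aged libraries, a change of -1.99 ± 0.29 (SE; limma adjusted p = 5.68e-04). Hgf, hepatocyte growth factor, stood at 74.95, 64.7, 70.9 and 51.1 in the young and 10.2, 15.3 and 23.4 in the aged libraries and changed by -1.998 ± 0.27 (SE; limma adjusted p = 4.60e-04). Wnt2 was counted at 372, 389.8, 428 and 259 in the young and 33.3, 169 and 44.9 in the aged libraries, a change of -2.47 ± 0.42 (SE; limma adjusted p = 0.00129). Vegfa, the angiogenic factor, was higher (1.77 ± 0.40 (SE; limma adjusted p = 0.00577)), as was Tcf4 (1.22 ± 0.25 (SE; limma adjusted p = 0.00307)), a factor of B cells and plasmacytoid dendritic cells. No aged library reached a young one for Igf1, Hgf or Wnt2. Among growth factors and TGF-beta, Wnt and Hgf pathway genes, the count called lower was 7 with the rescaled total.

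Retinoid genes include those that make and read the signal on which Gata6 depends. Of 13 members tested, 2 were called higher and 6 lower in aged libraries (median log2 fold change -0.64). Aldh1a2, which makes retinoic acid, was counted at 169, 161, 144 and 212 in the young and 66.6, 65.5 and 53.9 in the aged libraries, a change of -1.44 ± 0.20 (SE; limma adjusted p = 5.18e-04). Aldh1a1, another such enzyme, was nearly absent from the young libraries, with 0, 0, 8.41 and 1.16 in the young and 23.04, 67.7 and 32.3 in the aged libraries (change 4.16 ± 1.05 (SE; limma adjusted p = 0.0107)). The nuclear receptor gene Rxra changed by -1.24 ± 0.12 (SE; limma adjusted p = 1.26e-04). Tgm2, a transglutaminase induced by retinoic acid, stood at 54.9, 30.8, 64.8 and 39.5 in the young and 97.3, 302 and 70.1 in the aged libraries, a change of 1.46 ± 0.42 (SE; limma adjusted p = 0.0191), and aged replicate 4 held the most. Among retinoid handling genes, the count called higher was 1 by DESeq2. For Aldh1a1 the adjusted p was 0.12 by DESeq2.

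Genes of mitosis were lower in all but 1 member. Of 37 members tested, 0 were called higher and 36 lower in aged libraries (median log2 fold change -2.10). Mki67, the proliferation marker Ki-67, was counted at 1123, 863, 1247 and 2358 in the young and 193, 203 and 489 in the aged libraries, a change of -2.27 ± 0.36 (SE; limma adjusted p = 8.99e-04). Anln, the actin-binding protein anillin of the cleavage furrow, stood at 105, 66.5, 132 and 209 in the young and 12.8, 9.82 and 27.9 in the aged libraries and changed by -2.87 ± 0.38 (SE; limma adjusted p = 3.99e-04). The kinase Bub1 of the spindle checkpoint was counted at 28.8, 24.01, 50.4 and 86.003 in the young and 3.84, 5.46 and 9.88 in the aged libraries, a change of -2.61 ± 0.47 (SE; limma adjusted p = 0.00162). Each aged library was below each young one for all 3 genes, and in 34 of the 37 members, beside 21.9% of all tested genes. Young replicate E was the highest young library for each.

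DNA replication genes fell in most members. Of 32 members tested, 1 was called higher and 22 lower in aged libraries (median log2 fold change -0.98). Mcm2 and Mcm3, parts of the replicative helicase, stood at 159, 142, 198 and 273 in the young and 92.2, 97.1 and 130.3 in the aged libraries and at 268, 262, 364 and 499 in the young and 156, 182 and 169.8 in the aged libraries. They changed by -0.82 ± 0.21 (SE; limma adjusted p = 0.0103) and -0.99 ± 0.19 (SE; limma adjusted p = 0.00269). E2f8, a repressor of the E2F family that peaks in S phase, was counted at 74.95, 61.6, 80.5 and 108 in the young and 6.40, 12.004 and 13.5 in the aged libraries, a change of -2.85 ± 0.27 (SE; limma adjusted p = 1.26e-04). Ccne1, a cyclin of entry into S phase, was the 1 member called higher (24.5 ± 5.57 in young and 44.3 ± 9.36 in aged libraries), with an adjusted p of 0.14 without aged replicate 3, 0.0642 without aged replicate 6, 0.0784 without young replicate A, 0.0788 without young replicate B and 0.0632 without young replicate E. Among DNA replication and S phase genes, the count called higher was 0 with all genes above 0 tested. For Ccne1 the adjusted p was 0.056 with all genes above 0 tested.

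Clustered histone genes, whose messages are made in S phase and mostly lack a poly(A) tail, were lower where called. Of 25 members tested, 0 were called higher and 16 lower in aged libraries (median log2 fold change -0.99). The linker histone gene Hist1h1a stood at 171 ± 95.9 in young and 38.5 ± 3.56 in aged libraries, and Hist1h1b at 306, 217, 337 and 543 in the young and 137, 56.7 and 103 in the aged libraries. They changed by -1.99 ± 0.33 (SE; limma adjusted p = 0.0012) and -1.83 ± 0.32 (SE; limma adjusted p = 0.00135). Over the whole lists, the mean log2 level of mitosis genes relative to the young mean was -0.22, -0.62, 0.14 and 0.70 in the young and -2.29, -2.21 and -1.54 in the aged libraries. The young spread was wide, yet the aged libraries lay below it.

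Promoters of these genes were read for the elements by which division genes are known to be timed. TTTGAA, the cell cycle genes homology region (CHR) bound by the DREAM and MuvB complexes, occurred in 22 of 31 mitosis genes with a window (71.0%), against 18.1% of all promoters and 12.2% of those of tested genes. CCAAT, bound by NF-Y, occurred in 24 of the 31 (77.4%), against 37.9% and 39.2%. TTCCCGC, a core of E2F sites, occurred in 11 of 26 replication genes (42.3%) and in 0 of the 31 mitosis genes, against 4.66% of all promoters and 8.82% of those of tested genes. Searches covered both strands. Among genes called lower in aged libraries 13.5% held TTTGAA, and among those called higher 11.3%. For CCAAT these shares were 40.2% and 37.9%, and for TTCCCGC 8.97% and 7.73%. Of the called replication genes, 7 of 19 (36.8%) held TTCCCGC. The stretches shown carry the called member with the largest fold change for each element, or the next after it, and capitals mark the element.
Ccnb2: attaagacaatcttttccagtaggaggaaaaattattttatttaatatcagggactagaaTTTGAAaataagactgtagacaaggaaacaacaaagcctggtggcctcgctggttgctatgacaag
Top2a: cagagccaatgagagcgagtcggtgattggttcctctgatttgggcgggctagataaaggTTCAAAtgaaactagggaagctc
Bub1: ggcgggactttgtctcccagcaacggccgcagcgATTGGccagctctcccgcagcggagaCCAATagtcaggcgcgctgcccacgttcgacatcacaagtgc
Cenpe: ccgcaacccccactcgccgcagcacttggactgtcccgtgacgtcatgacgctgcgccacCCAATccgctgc
Cdc6: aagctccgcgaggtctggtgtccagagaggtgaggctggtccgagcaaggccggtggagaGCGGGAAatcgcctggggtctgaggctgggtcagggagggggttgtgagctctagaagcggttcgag
E2f7: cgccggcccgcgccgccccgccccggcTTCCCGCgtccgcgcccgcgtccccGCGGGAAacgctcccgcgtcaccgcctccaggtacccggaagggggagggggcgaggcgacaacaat
The stretches are chr9:70421656-70421781, minus strand for Ccnb2, chr11:99024190-99024272, minus strand for Top2a and chr2:127831860-127831961, minus strand for Bub1, with TTTGAA in the first 2 and CCAAT in the third. They are chr3:135212491-135212562, plus strand for Cenpe (CCAAT), chr11:98907953-98908079, plus strand for Cdc6 and chr10:110745189-110745307, plus strand for E2f7 (TTCCCGC in both). E2f7 holds the element in both orientations, and Bub1 holds CCAAT in both.

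The genes of these promoters encode a cyclin that drives entry into mitosis (Ccnb2), topoisomerase II alpha (Top2a), a centromere motor (Cenpe), a licensing factor of replication origins (Cdc6) and an E2F repressor (E2f7). Ccnb2 was counted at 64.5, 46.8, 82.9 and 143 in the young and 8.96, 13.1 and 21.6 in the aged libraries, a change of -2.42 ± 0.36 (SE; limma adjusted p = 6.85e-04). Cenpe stood at 126, 109.6, 143 and 249 in the young and 24.3, 12.004 and 44.9 in the aged libraries and changed by -2.60 ± 0.39 (SE; limma adjusted p = 7.13e-04). Cdc6 stood at 32.2, 16.6, 62.4 and 58.1 in the young and 3.84, 12.004 and 13.5 in the aged libraries and changed by -1.99 ± 0.52 (SE; limma adjusted p = 0.0131), with an adjusted p of 0.0585 without aged replicate 3, and E2f7 changed by -2.33 ± 0.57 (SE; limma adjusted p = 0.00936). No library of one group fell within the range of the other for Ccnb2 or Cenpe.

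Inhibitors of division were called near the background in both directions. Of 24 members tested, 4 were called higher and 4 lower in aged libraries (median log2 fold change -0.21). Each share was 16.7%, beside 14.3% higher and 19.0% lower over all tested genes. Cdkn2a, the locus of p16 and p19Arf that is often used as a marker of senescence, had 17.4, 22.8, 16.8 and 29.1 in the young and 8.96, 17.5 and 22.5 in the aged libraries (change -0.44 ± 0.38 (SE; limma adjusted p = 0.41)), and the groups overlapped. Cdkn1a, which encodes p21, had 179.5, 126, 179 and 265 in the young and 131, 74.2 and 88.04 in the aged libraries (change -0.92 ± 0.34 (SE; limma adjusted p = 0.0582)), and its adjusted p was 0.0473 without aged replicate 3 and 0.0388 without young replicate B. Cdkn2c, which encodes p18, fell, at 71.5, 49.9, 82.9 and 114 in the young and 12.8, 13.1 and 17.1 in the aged libraries, a change of -2.34 ± 0.30 (SE; limma adjusted p = 3.32e-04). Trp53inp1, a target of p53, was higher at 148, 123, 118 and 121 in the young and 256, 222 and 243 in the aged libraries, a change of 0.91 ± 0.13 (SE; limma adjusted p = 4.73e-04). Cdkn1b, the p27 gene of resting lymphocytes and other cells, was also higher (0.82 ± 0.20 (SE; limma adjusted p = 0.00953)). Among CDK inhibitors and p53 arrest genes, the count called lower was 7 under TMM scaling. For Cdkn1a the adjusted p was 0.0372 with all genes above 0 tested, 0.0383 under TMM scaling, 0.0235 with the 7 wild-type libraries alone and 0.0412 by DESeq2.

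Genes of the endoplasmic reticulum were lower in most members. Of 37 members tested, 1 was called higher and 21 lower in aged libraries (median log2 fold change -0.56). Sdf2l1, a partner of the chaperone BiP, was counted at 269, 252, 366 and 331 in the young and 88.3, 177 and 97.9 in the aged libraries, a change of -1.38 ± 0.26 (SE; limma adjusted p = 0.0021). Hsp90b1, the chaperone Grp94, stood at 2269, 1842, 2158 and 2806 in the young and 1395, 1572 and 1316 in the aged libraries and changed by -0.66 ± 0.17 (SE; limma adjusted p = 0.0115). Hspa5, the BiP gene itself, had 2488, 1809.7, 2608 and 3028 in the young and 1489, 1623 and 1345 in the aged libraries (change -0.72 ± 0.27 (SE; limma adjusted p = 0.0603)), with an adjusted p of 0.0377 without young replicate B. Subunits of the oligosaccharyl transferase called lower were Rpn2 (-1.14), Ddost (-1.11) and Ostc (-0.87), by log2 fold change. Atf6, a sensor of unfolded protein, was the 1 member called higher, at 394, 422, 341 and 380.04 in the young and 700.1, 514 and 634 in the aged libraries, a change of 0.67 ± 0.13 (SE; limma adjusted p = 0.00274), and the count called higher was 2 without aged replicate 4. Among ER translocation, glycosylation and folding genes, the count called higher was 2 with the rescaled total. For Hspa5 the adjusted p was 0.0345 with all genes above 0 tested, 0.0374 under TMM scaling, 0.00995 with the 7 wild-type libraries alone and 0.039 by DESeq2.

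Few heat-shock chaperones were called. Of 22 members tested, 1 was called higher and 3 lower in aged libraries (median log2 fold change -0.24). The inducible Hspa1a and Hspa1b, near-identical copies whose reads cannot be separated with certainty, stood at 180.4, 316, 262 and 506 in the young and 28.2, 26.2 and 73.7 in the aged libraries and at 296, 445, 378 and 843 in the young and 40.96, 53.5 and 124 in the aged libraries. They changed by -2.92 ± 0.55 (SE; limma adjusted p = 0.00217) and -2.78 ± 0.66 (SE; limma adjusted p = 0.00757). Bag3, their co-chaperone, changed by -1.14 ± 0.25 (SE; limma adjusted p = 0.00466). Hsf1, the factor that induces them, was higher (0.70 ± 0.14 (SE; limma adjusted p = 0.00336)). Every aged library was below every young one for both Hspa1 genes. Among heat-shock chaperones, the count called lower was 5 with the 7 wild-type libraries alone.

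Ribosomal protein genes that were called were all higher, by small amounts. Of 76 members tested, 18 were called higher and 0 lower in aged libraries (median log2 fold change 0.17). Rpl30 was counted at 461, 419, 480.4 and 391 in the young and 783, 727 and 638 in the aged libraries, a change of 0.71 ± 0.11 (SE; limma adjusted p = 8.01e-04). Rpl3 had 3273 ± 168 in young and 3667 ± 240.04 in aged libraries (change 0.16 ± 0.10 (SE; limma adjusted p = 0.23)). With 1 library left out, the count called higher was 10 without aged replicate 6 and 11 without young replicate A, and the median was 0.10 under TMM scaling and 0.36 with the rescaled total. Ribosomal messages are abundant in resting lymphocytes as well as in macrophages. Among cytosolic ribosomal proteins, the count called higher was 50 with the rescaled total and 30 by DESeq2. For Rpl3 the adjusted p was 0.024 with the rescaled total.

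Translation factors and proteasome subunits were near the background. For the factors, of 29 members tested, 4 were called higher and 3 lower in aged libraries (median log2 fold change 0.0046), the median was -0.064 under TMM scaling, and the count called higher was 1 without aged replicate 6, 1 without young replicate A, 2 without young replicate B and 1 without young replicate C. Eef2, which moves the ribosome along the message, had 7903 ± 183 in young and 8389 ± 807 in aged libraries (change 0.082 ± 0.10 (SE; limma adjusted p = 0.57)). Eif4ebp1, the cap-binding inhibitor, fell (-0.76 ± 0.18 (SE; limma adjusted p = 0.00668)). For the proteasome, of 36 members tested, 3 were called higher and 5 lower in aged libraries (median log2 fold change -0.20), and the count called lower was 2 without aged replicate 3, 8 without aged replicate 4, 3 without aged replicate 6, 3 without young replicate C and 3 without young replicate E. The immunoproteasome subunit genes Psmb9 and Psmb8, induced by interferon gamma and present in lymphocytes, were higher (1.08 ± 0.19 (SE; limma adjusted p = 0.00162) and 0.56 ± 0.16 (SE; limma adjusted p = 0.0179)), with an adjusted p for Psmb8 of 0.081 without aged replicate 3. Psmb9 was counted at 59.3, 99.1, 97.3 and 84.8 in the young and 201, 157 and 176 in the aged libraries. Among translation initiation and elongation factors, the count called higher was 1 with all genes above 0 tested, 1 under TMM scaling, 10 with the rescaled total and 2 with the 7 wild-type libraries alone, and the count called lower was 6 under TMM scaling. Among proteasome subunits, the count called higher was 6 with the rescaled total, and the count called lower was 2 with all genes above 0 tested, 9 under TMM scaling, 1 with the rescaled total, 3 with the 7 wild-type libraries alone, 3 by edgeR and 3 by DESeq2.

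Genes of the integrated stress response and of one-carbon metabolism were divided. For the first, of 23 members tested, 2 were called higher and 6 lower in aged libraries (median log2 fold change -0.08), and the median was 0.11 with the rescaled total. Slc7a1, a carrier of cationic amino acids, was counted at 163, 185, 172 and 230.1 in the young and 672, 224 and 357 in the aged libraries, a change of 1.02 ± 0.28 (SE; limma adjusted p = 0.0173). Leaving out single libraries set the count called higher at 1 without aged replicate 3, 1 without young replicate A, 1 without young replicate B and 1 without young replicate C. For serine and folate enzymes, of 25 members tested, 3 were called higher and 7 lower in aged libraries (median log2 fold change -0.10), and the median was 0.088 with the rescaled total. Psat1, the transaminase of serine synthesis, stood at 46.2, 51.7, 72.1 and 106 in the young and 19.2, 36.01 and 22.5 in the aged libraries and changed by -1.35 ± 0.32 (SE; limma adjusted p = 0.00768). Phgdh, the first enzyme of the same pathway, rose in counts, at 31.4, 51.7, 37.2 and 26.7 in the young and 146, 109 and 154 in the aged libraries (1.89 ± 0.33 (SE; limma adjusted p = 0.00135)), though more than 50% of its sequence is shared with other genes. Tyms, the thymidylate synthase that follows the cell cycle, changed by -1.68 ± 0.30 (SE; limma adjusted p = 0.00168). Among integrated stress response genes, the count called higher was 1 under TMM scaling and 5 with the rescaled total. Among serine and folate one-carbon enzymes, the count called higher was 5 with the rescaled total.

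Glycolysis was lower in most called members. Of 31 members tested, 3 were called higher and 17 lower in aged libraries (median log2 fold change -0.57). Hk3, the hexokinase of myeloid cells, was counted at 254, 280.2, 246 and 257 in the young and 72.96, 136 and 128 in the aged libraries, a change of -1.25 ± 0.19 (SE; limma adjusted p = 7.08e-04). Hk1 and Hk2 changed by -0.64 ± 0.12 (SE; limma adjusted p = 0.00248) and -0.74 ± 0.18 (SE; limma adjusted p = 0.00877). Slc2a1, the basal glucose transporter, stood at 76.7, 81.3, 60.05 and 58.1 in the young and 209, 91.7 and 216 in the aged libraries and changed by 1.22 ± 0.26 (SE; limma adjusted p = 0.00427), and aged replicate 4 held the least of the aged libraries. Members called lower numbered 11 without aged replicate 3, and the count called higher 1 without aged replicate 3 and 1 without aged replicate 6.

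Genes of mitochondrial proteins encoded in the nucleus were lower where called on the deposited scale. Only the respiratory chain list passed the background share there. Shares called lower were 40% for the respiratory chain, 11.8% for the TCA cycle and 9.21% for mitochondrial ribosomal proteins, beside 19.0% of tested genes. For the TCA cycle, of 34 members tested, 0 were called higher and 4 lower in aged libraries (median log2 fold change -0.18), and the median was 0.014 with the rescaled total. Idh2, the mitochondrial NADP-dependent isocitrate dehydrogenase, was counted at 308, 313, 360.3 and 449.8 in the young and 115, 189.9 and 141 in the aged libraries, a change of -1.27 ± 0.19 (SE; limma adjusted p = 7.07e-04), and its cytosolic relative Idh1 changed by -1.17 ± 0.22 (SE; limma adjusted p = 0.0021). For nuclear-encoded subunits of the respiratory chain, of 70 members tested, 0 were called higher and 28 lower in aged libraries (median log2 fold change -0.33), and the median was -0.14 with the rescaled total. Ndufa1, a subunit of complex I, stood at 60.1, 64.7, 67.3 and 95.3 in the young and 34.6, 50.2 and 27.9 in the aged libraries and changed by -0.94 ± 0.22 (SE; limma adjusted p = 0.0072). The count of members called lower became 15 without aged replicate 3, 9 without aged replicate 6, 17 without young replicate C and 11 without young replicate E. For mitochondrial ribosomal proteins, of 76 members tested, 0 were called higher and 7 lower in aged libraries (median log2 fold change -0.088), the median was 0.10 with the rescaled total, and the count called lower was 3 without aged replicate 3, 4 without aged replicate 6, 3 without young replicate C and 3 without young replicate E. With the TCA list the number called lower was 7 without aged replicate 4, and the count called higher 2 without aged replicate 4. Among TCA cycle and pyruvate entry genes, the count called higher was 1 with the rescaled total, 1 with the 7 wild-type libraries alone, 2 by edgeR and 2 by DESeq2, and the count called lower was 8 under TMM scaling. Among nuclear-encoded respiratory chain subunits, the count called higher was 1 with the rescaled total, and the count called lower was 12 with all genes above 0 tested, 5 with the rescaled total and 18 by DESeq2. Among mitochondrial ribosomal proteins, the count called higher was 2 with the rescaled total and 1 by edgeR, and the count called lower was 3 with all genes above 0 tested, 3 with the rescaled total, 4 with the 7 wild-type libraries alone, 4 by edgeR and 3 by DESeq2.

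Transcripts of the mitochondrial genome were higher in most members. Of 15 members tested, 13 were called higher and 0 lower in aged libraries (median log2 fold change 1.05). The ribosomal RNA mt-Rnr1 was counted at 3553, 2659, 4274 and 3203 in the young and 5324, 15364 and 5623 in the aged libraries, a change of 1.19 ± 0.31 (SE; limma adjusted p = 0.013). mt-Nd5, a complex I subunit, stood at 4479.7, 4584, 6658 and 4379 in the young and 7237, 19339 and 7734 in the aged libraries and changed by 1.05 ± 0.29 (SE; limma adjusted p = 0.0164). Aged replicate 4 held the most of both, and young replicate C the most of the young libraries. Relative to the young mean the list stood at 0.043, -0.13, 0.24 and -0.15 in the young and 0.55, 2.09 and 0.65 in the aged libraries. With 1 library left out, the count called higher was 8 without aged replicate 4, 5 without young replicate A, 6 without young replicate B and 5 without young replicate E.

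Several genes that make or use NAD, or break down tryptophan through kynurenine, rose. Of 17 members tested, 6 were called higher and 1 lower in aged libraries (median log2 fold change 0.41). Kynu, the kynureninase, was counted at 31.4, 25.2, 26.4 and 13.9 in the young and 106, 64.4 and 97.9 in the aged libraries, a change of 1.87 ± 0.34 (SE; limma adjusted p = 0.00195). Cd38, the main NAD-consuming enzyme of immune cells and a marker of several lymphocytes, changed by 0.98 ± 0.23 (SE; limma adjusted p = 0.00744). Nadk, the NAD kinase, fell, at 873, 857, 789 and 773 in the young and 507, 569 and 558 in the aged libraries, a change of -0.59 ± 0.09 (SE; limma adjusted p = 7.80e-04), and the count called lower was 2 without aged replicate 4 and 2 without young replicate B. The 2 groups did not overlap for Kynu or Nadk. Among NAD and kynurenine pathway genes, the count called lower was 2 under TMM scaling.

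Antioxidant and nucleotide enzymes were mostly lower where called. Of 28 members tested, 1 was called higher and 12 lower in aged libraries (median log2 fold change -0.43). Prdx4, the peroxiredoxin of the endoplasmic reticulum, was counted at 177, 134, 181 and 269.6 in the young and 46.1, 44.7 and 82.7 in the aged libraries, a change of -1.72 ± 0.26 (SE; limma adjusted p = 7.37e-04). Gclc, which makes the first step of glutathione synthesis, was higher at 67.1, 58.5, 85.3 and 74.4 in the young and 145, 147 and 113 in the aged libraries, a change of 0.92 ± 0.16 (SE; limma adjusted p = 0.00147). For purines and pyrimidines, of 27 members tested, 2 were called higher and 11 lower in aged libraries (median log2 fold change -0.34), and the count called lower was 5 without aged replicate 3 and 7 without aged replicate 6. Xdh, which makes uric acid, stood at 1448, 1509, 1576 and 1304 in the young and 584, 1282 and 672 in the aged libraries and changed by -0.87 ± 0.24 (SE; limma adjusted p = 0.015), with an adjusted p of 0.0694 without aged replicate 3 and 0.0669 without aged replicate 6. Ada, the adenosine deaminase of lymphocytes, was higher (1.56 ± 0.32 (SE; limma adjusted p = 0.0034)). Among purine and pyrimidine metabolism enzymes, the count called lower was 5 with the rescaled total.

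B cell genes rose in nearly every member. Of 23 members tested, 22 were called higher and 0 lower in aged libraries (median log2 fold change 2.03). Ms4a1, the CD20 gene, was counted at 455, 485, 438 and 257 in the young and 1937, 1333 and 2229 in the aged libraries, a change of 2.17 ± 0.33 (SE; limma adjusted p = 7.07e-04). Tnfrsf13c, the receptor for the survival factor BAFF, was counted at 72.3, 67.7, 80.5 and 24.4 in the young and 585, 406 and 391 in the aged libraries, a change of 2.997 ± 0.37 (SE; limma adjusted p = 3.07e-04). Summed over the list, the normalized counts were 6211, 6853, 5688 and 3575 in the young and 22731, 14946 and 21418 in the aged libraries. Young replicate E held the fewest, and no young library reached an aged one.

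Genes of B-1 cells, the innate-like B cells of body cavities, rose in most members. Of 20 members tested, 14 were called higher and 3 lower in aged libraries (median log2 fold change 1.72). Zbtb32, a repressor expressed by B-1 cells, was counted at 81.9, 105, 84.1 and 44.2 in the young and 518, 279 and 402 in the aged libraries, a change of 2.35 ± 0.31 (SE; limma adjusted p = 3.75e-04). Cd5, the marker of B-1a cells and T cells, stood at 11.3, 16.01, 14.4 and 3.49 in the young and 49.9, 25.1 and 42.2 in the aged libraries and changed by 1.81 ± 0.44 (SE; limma adjusted p = 0.00904). Ctla4, an inhibitory receptor of regulatory T cells that B-1a cells also carry, was counted at 19.2, 11.7, 10.8 and 8.14 in the young and 301, 111 and 294 in the aged libraries, a change of 4.06 ± 0.46 (SE; limma adjusted p = 2.20e-04). Il5ra, the interleukin-5 receptor of B-1 cells and eosinophils, stood at 61.01, 64.04, 56.4 and 37.2 in the young and 526, 212 and 386 in the aged libraries and changed by 2.69 ± 0.38 (SE; limma adjusted p = 5.44e-04). The members called lower, Itgam (-1.26), Myof (-0.99) and Cd9 (-0.74) by log2 fold change, are also macrophage genes.

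Genes of age-associated B cells and plasma cells were called in both directions. Of 20 members tested, 10 were called higher and 3 lower in aged libraries (median log2 fold change 1.44). The immunoglobulin heavy chain gene Ighm was counted at 2415, 2613, 2338 and 1242 in the young and 10859, 6654 and 9704 in the aged libraries, a change of 2.10 ± 0.29 (SE; limma adjusted p = 4.70e-04). Fcrl5, an Fc-receptor-like protein of B-1 and atypical memory cells, stood at 61.01, 37.6, 38.4 and 12.8 in the young and 335, 311 and 261 in the aged libraries and changed by 3.16 ± 0.38 (SE; limma adjusted p = 2.74e-04). The plasma cell genes Prdm1 and Mzb1 changed by 3.01 ± 0.36 (SE; limma adjusted p = 2.78e-04) and 2.18 ± 0.30 (SE; limma adjusted p = 4.73e-04). Zeb2, a factor of age-associated B cells and of macrophages, was lower (-0.78 ± 0.11 (SE; limma adjusted p = 6.17e-04)), as was Fas (-1.13 ± 0.22 (SE; limma adjusted p = 0.00274)), a death receptor.

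T cell genes rose in most members, at far lower counts. Of 26 members tested, 23 were called higher and 0 lower in aged libraries (median log2 fold change 1.88). Tcf7, the factor of naive and memory T cells, was counted at 30.5, 35.7, 21.6 and 24.4 in the young and 169, 111 and 89.8 in the aged libraries, a change of 2.07 ± 0.40 (SE; limma adjusted p = 0.00241). Cd3d and Cd3e, chains of the T cell receptor complex, stood at 10.5, 6.16, 2.40 and 2.32 in the young and 31.998, 17.5 and 23.4 in the aged libraries and at 12.2, 6.16, 4.80 and 1.16 in the young and 38.4, 26.2 and 37.7 in the aged libraries. They changed by 2.15 ± 0.49 (SE; limma adjusted p = 0.0062) and 2.56 ± 0.56 (SE; limma adjusted p = 0.00499). Summed over the list the normalized counts were 569.98, 578, 476 and 438 in the young and 2172, 1443 and 1655 in the aged libraries, far below the B cell sum in each library.

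Genes of MHC class II presentation rose in most members. Of 15 members tested, 11 were called higher and 2 lower in aged libraries (median log2 fold change 0.96). The class II chain gene H2-Aa was counted at 1585, 1749, 1422 and 1162 in the young and 3632, 2373 and 3424 in the aged libraries, a change of 1.08 ± 0.18 (SE; limma adjusted p = 0.00101), and Cd74, the invariant chain, at 6647, 7266, 5945 and 4961 in the young and 13123, 9208 and 14695 in the aged libraries, a change of 0.98 ± 0.18 (SE; limma adjusted p = 0.00217). H2-Ob, a regulator of peptide loading found mainly in B cells, stood at 187, 158, 135 and 76.7 in the young and 814, 384 and 505 in the aged libraries and changed by 2.03 ± 0.29 (SE; limma adjusted p = 5.90e-04). Ctss, cathepsin S, which cuts the invariant chain, fell, at 4121, 4171, 4116 and 4063 in the young and 2221, 2926 and 2436 in the aged libraries, a change of -0.71 ± 0.10 (SE; limma adjusted p = 6.15e-04). Leaving out single libraries set the count called lower at 1 without aged replicate 3, 1 without aged replicate 6, 1 without young replicate A, 1 without young replicate C and 1 without young replicate E. For class I, of 19 members tested, 7 were called higher and 2 lower in aged libraries (median log2 fold change 0.27). H2-K1 had 3905 ± 474 in young and 4155 ± 446 in aged libraries (change 0.092 ± 0.13 (SE; limma adjusted p = 0.62)). Among MHC class II and peptide loading genes, the count called lower was 1 with all genes above 0 tested, 1 with the rescaled total, 1 by edgeR and 1 by DESeq2.

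**Figure D4:**
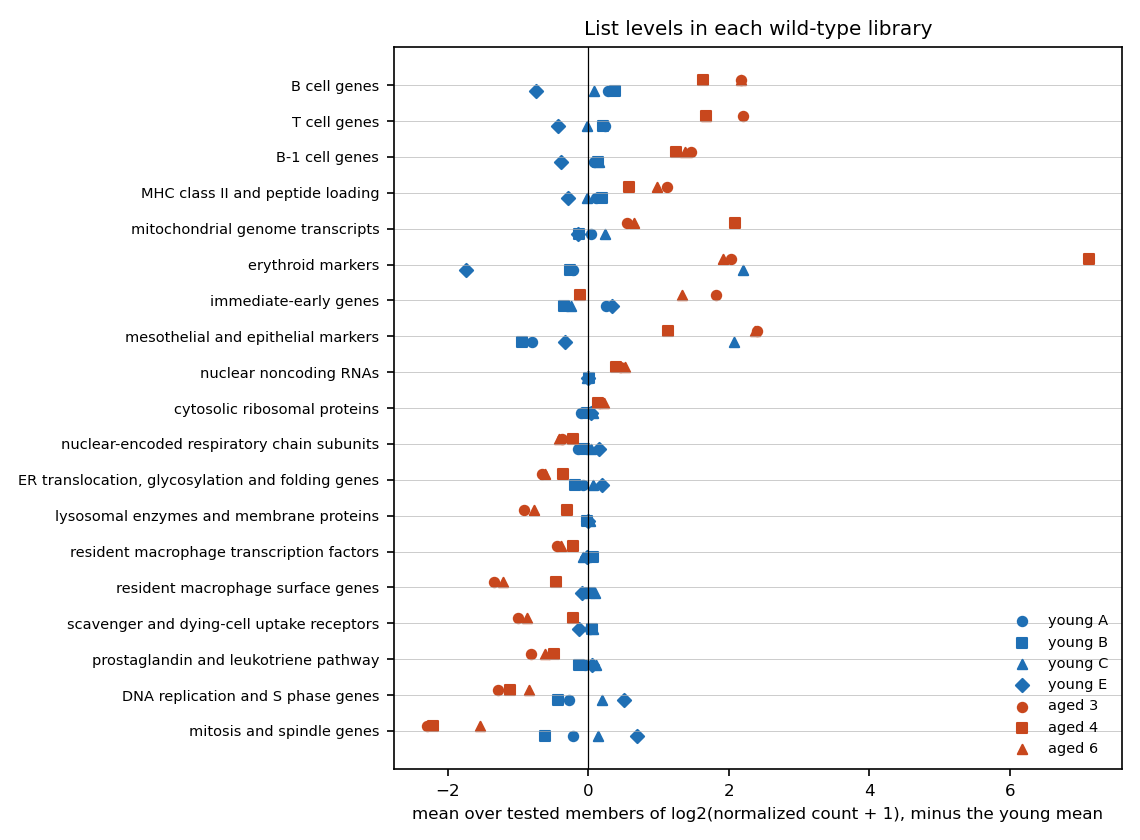
Mean over the tested members of each list of log2(normalized count + 1), minus the mean of the young libraries, in each of the 7 libraries (young in blue, aged in orange, marker shape giving the replicate). Aged libraries lie to the right of the young ones for B and T cell genes and to the left for mitosis, lysosomal and resident macrophage surface genes, and aged replicate 4 stands alone at 7.12 for erythroid markers.

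Markers of further cell types were unevenly spread. Erythroid markers, chiefly globins, stood at -0.22, -0.25, 2.20 and -1.73 in the young and 2.04, 7.12 and 1.91 in the aged libraries relative to the young mean, and the count called higher, 7 of 9 tested, was 1 without aged replicate 4, 1 without young replicate A, 2 without young replicate B and 0 without young replicate E. Mesothelial and epithelial markers stood at -0.80, -0.94, 2.07 and -0.33 in the young and 2.41, 1.13 and 2.38 in the aged libraries, with 2 higher and 1 lower of 11 tested, and the count called higher was 1 without aged replicate 6, 1 without young replicate A, 1 without young replicate B, 6 without young replicate C and 1 without young replicate E. For mast cells, of 10 members tested, 1 was called higher and 0 lower in aged libraries (median log2 fold change 1.93), and the count called higher was 2 without aged replicate 4 and 6 without young replicate C. Cpa3, a mast cell protease, had 51.4, 44.95, 237 and 5.81 in the young and 183, 127 and 362 in the aged libraries (change 2.20 ± 1.14 (SE; limma adjusted p = 0.16)). Fibroblast markers had 0 of 7 called by limma, 1 of them without young replicate C, and Col1a1, a collagen chain, had 2.61, 1.23, 90.1 and 2.32 in the young and 34.6, 5.46 and 41.3 in the aged libraries (change 1.602 ± 1.48 (SE; limma adjusted p = 0.44)). Of 6 endothelial and platelet genes tested, Pecam1 was higher and Pf4 lower. Among mast cell markers, the count called higher was 2 with a pseudocount of 5, 3 with all genes above 0 tested, 3 with the rescaled total and 3 with the 7 wild-type libraries alone. Among erythroid markers, the count called higher was 3 with the 7 wild-type libraries alone and 1 by DESeq2. Among endothelial and platelet markers, the count called higher was 2 by edgeR and 3 by DESeq2.

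Few genes of neutrophils, eosinophils and NK cells were abundant enough to test. Of 15 neutrophil markers 2 were tested, and both, Padi4 and Csf3r, are expressed by macrophages too. Padi4, which converts arginine to citrulline in proteins, was counted at 4729.8, 5115, 4800.1 and 5612 in the young and 1326, 3033 and 1820.2 in the aged libraries, a change of -1.38 ± 0.21 (SE; limma adjusted p = 7.81e-04). Of 24 NK and cytotoxic genes 4 were tested and 1, Ccl5, was called higher. Relative to the young mean, mast cell markers stood at 0.053, -0.025, 1.68 and -1.71 in the young and 1.78, 1.49 and 2.45 in the aged libraries, and fibroblast markers at -0.83, -1.34, 3.06 and -0.90 in the young and 2.74, 0.071 and 2.89 in the aged libraries. Young replicate C was the highest young library for the erythroid, mast cell, mesothelial and fibroblast lists, and young replicate E the lowest for the erythroid and mast cell lists. The part of these cells in the results was not tested. Among NK and cytotoxic effector genes, the count called higher was 2 with a pseudocount of 5, 2 with all genes above 0 tested, 2 with the rescaled total, 2 with the 7 wild-type libraries alone, 2 by edgeR and 2 by DESeq2.

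Immediate-early genes, which respond within minutes to handling or stimulation, rose in part. Of 24 members tested, 5 were called higher and 0 lower in aged libraries (median log2 fold change 0.73). Fosb was counted at 47.1, 29.6, 153 and 39.5 in the young and 1231, 122 and 597 in the aged libraries, a change of 3.03 ± 0.86 (SE; limma adjusted p = 0.0192), with an adjusted p of 0.0898 without aged replicate 3 and 0.0679 without aged replicate 6. Fos had 969, 570.2, 803 and 804 in the young and 3926, 627 and 2392 in the aged libraries (change 1.22 ± 0.62 (SE; limma adjusted p = 0.15)), and its adjusted p was 0.0127 without aged replicate 4. Aged replicate 4 lay within the young range for Fos and the other aged libraries far above it. Members called higher numbered 3 without aged replicate 3 and 15 without aged replicate 4. Among immediate-early genes, the count called higher was 8 by edgeR and 9 by DESeq2.

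Clock genes were called in both directions. Of 17 members tested, 5 were called higher and 4 lower in aged libraries (median log2 fold change 0.24). Per2, a repressor of the clock, was counted at 9.59, 9.24, 14.4 and 25.6 in the young and 48.6, 39.3 and 31.4 in the aged libraries, a change of 1.47 ± 0.42 (SE; limma adjusted p = 0.0186), with an adjusted p of 0.0713 without aged replicate 3. Arntl, its activator, stood at 146, 153, 172 and 141 in the young and 63.996, 97.1 and 118 in the aged libraries and changed by -0.75 ± 0.20 (SE; limma adjusted p = 0.0123). The repressor gene Cry1 changed by 2.02 ± 0.29 (SE; limma adjusted p = 5.69e-04). The count of members called higher became 2 without aged replicate 3 and 3 without aged replicate 6, and the count called lower 2 without aged replicate 6 and 2 without young replicate A. The time of day of collection is not in the labels. Among circadian clock genes, the count called lower was 1 with the rescaled total.

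Few splicing and chromatin genes were called on the deposited scale, and more with the rescaled total. For splicing factors, of 35 members tested, 4 were called higher and 0 lower in aged libraries (median log2 fold change 0.089), and the count called higher was 2 without aged replicate 3 and 7 without aged replicate 4. Srrm2, a scaffold of nuclear speckles, was counted at 3585, 3692, 3318 and 3037 in the young and 6081, 4250.3 and 4624 in the aged libraries, a change of 0.54 ± 0.13 (SE; limma adjusted p = 0.00904). For chromatin modifiers, of 29 members tested, 4 were called higher and 4 lower in aged libraries (median log2 fold change 0.12), and the count called higher was 8 without aged replicate 4 and the count called lower 1 without aged replicate 3, 2 without aged replicate 6, 1 without young replicate A, 2 without young replicate C and 1 without young replicate E. Each share of the chromatin list was 13.8%, beside 14.3% higher and 19.0% lower over all tested genes. Hdac7, a deacetylase of lymphocytes, changed by 1.33 ± 0.25 (SE; limma adjusted p = 0.00227), and the DNA methyltransferase Dnmt1 by -0.62 ± 0.14 (SE; limma adjusted p = 0.00659). Among splicing factors, the count called higher was 2 with all genes above 0 tested and 14 with the rescaled total. Among chromatin modifiers, the count called higher was 14 with the rescaled total, and the count called lower was 1 with all genes above 0 tested, 1 with the rescaled total, 2 with the 7 wild-type libraries alone, 2 by edgeR and 2 by DESeq2.

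Nuclear noncoding RNAs were higher where called. Of 13 members tested, 5 were called higher and 0 lower in aged libraries (median log2 fold change 0.58). Malat1, a long noncoding RNA of nuclear speckles, was counted at 14107, 15928, 11293 and 10144 in the young and 20461, 22819 and 25345 in the aged libraries, a change of 0.85 ± 0.16 (SE; limma adjusted p = 0.00241). The small nuclear RNA Rn7sk stood at 23295, 12746, 23899 and 22407 in the young and 39499.6, 30868 and 30470.4 in the aged libraries and changed by 0.74 ± 0.21 (SE; limma adjusted p = 0.0204), with an adjusted p of 0.0736 without aged replicate 3, and most of its sequence occurs in other annotated genes. Gm26917 stood at 190838 ± 5321 in young and 339109 ± 86964 in aged libraries, a change of 0.80 ± 0.22 (SE; limma adjusted p = 0.0178), with an adjusted p of 0.0542 without young replicate C. For Gm26917 the adjusted p was 0.0532 with the 7 wild-type libraries alone.

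D10Wsu102e, Ahnak2, Mcc and Tent5c were among the genes with the largest fold rises. D10Wsu102e (chr10:83360221-83488505, plus strand) was counted at 137, 129.9, 181 and 108 in the young and 3650.3, 1328 and 2424 in the aged libraries, a change of 4.05 ± 0.28 (SE; limma adjusted p = 5.91e-05). Its exons overlap those of Aldh1l2, so the reads of the pair cannot be told apart. Ahnak2, a large scaffold protein, stood at 93.3, 119, 103 and 59.3 in the young and 1019, 581 and 901 in the aged libraries and changed by 3.14 ± 0.37 (SE; limma adjusted p = 2.29e-04). Mcc, a negative regulator of Wnt signalling, was counted at 15.7, 22.2, 22.8 and 17.4 in the young and 550.4, 120.03 and 215 in the aged libraries, a change of 3.58 ± 0.60 (SE; limma adjusted p = 0.00115), with aged replicate 3 well above the rest. Tent5c, a poly(A) polymerase of plasma cells and erythroid cells, stood at 27.02, 25.9, 44.4 and 15.1 in the young and 87.03, 1152 and 143 in the aged libraries and changed by 3.17 ± 0.70 (SE; limma adjusted p = 0.00526). Aged replicate 4, the library richest in globin, held most of the Tent5c counts.

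Plxdc2 and Lyve1 were among the genes with the largest fold falls, ranked only among called genes without overlap between groups. Plxdc2 (chr2:16356304-16755839, plus strand), a transmembrane plexin-domain protein, was counted at 3206, 3203, 2981 and 3035 in the young and 380.1, 971 and 516 in the aged libraries, a change of -2.43 ± 0.24 (SE; limma adjusted p = 1.26e-04). The young libraries were nearly equal and all aged libraries lay far below them. Lyve1, a hyaluronan receptor of the resident macrophage surface list, stood at 159, 303, 441 and 267 in the young and 23.04, 57.8 and 21.6 in the aged libraries, a change of -3.12 ± 0.65 (SE; limma adjusted p = 0.00376), and the aged libraries did not overlap the young ones.

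Some genes had no read in 1 of the groups. In the 4 young libraries 10 genes had none while each aged library had at least 3. Dusp14, a phosphatase that dampens T cell receptor signals, had 16, 10 and 17 reads in aged replicates 3, 4 and 6 (15.6 ± 4.79 normalized counts). Against a floor of 3 reads in each young library it was at least 5.39-fold higher. Gzmk, a granzyme of memory T cells, had 5, 3 and 14 reads. The reverse held for 1 gene, the pseudogene Gm26956, with 6, 7, 4 and 3 reads in the young libraries.

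Chromosomes 15 and 17 departed from the others, a pattern noticed after the values were seen. Among genes averaging 50 or more normalized counts, 77 of 300 on chromosome 15 (25.7%) were higher and 47 lower, with a median of 0.18. On chromosome 17, 86 of 377 (22.8%) were higher and 47 lower, with a median of 0.13. The medians of the other 18 chromosomes, leaving out the Y chromosome and the mitochondrial genome, lay between -0.14 and -0.023. In aged replicates 3, 4 and 6 the median difference from the young mean was 0.34, 0.14 and 0.032 on chromosome 15. It was 0.30, 0.078 and -0.0065 on chromosome 17. Without aged replicate 3 the medians were 0.097 and 0.026, and under TMM scaling 0.11 and 0.061. With the lists of other cell types left out, 296 genes of chromosome 15 and 368 of chromosome 17 remained, with medians of 0.18 and 0.12. Leaving out so few genes could hardly move a median, and the part of other cells was not tested. Whether these shifts come from many loci or from a region was not tested beyond bins of 20 Mb, in which aged replicate 3 was above the young mean in each of 5 bins of chromosome 17 and in 5 of 6 bins of chromosome 15. The exception, 40 to 60 Mb of chromosome 15, had a median of -0.041 in aged replicate 3, with 12 of 24 genes above the young mean.

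**Figure D5:**
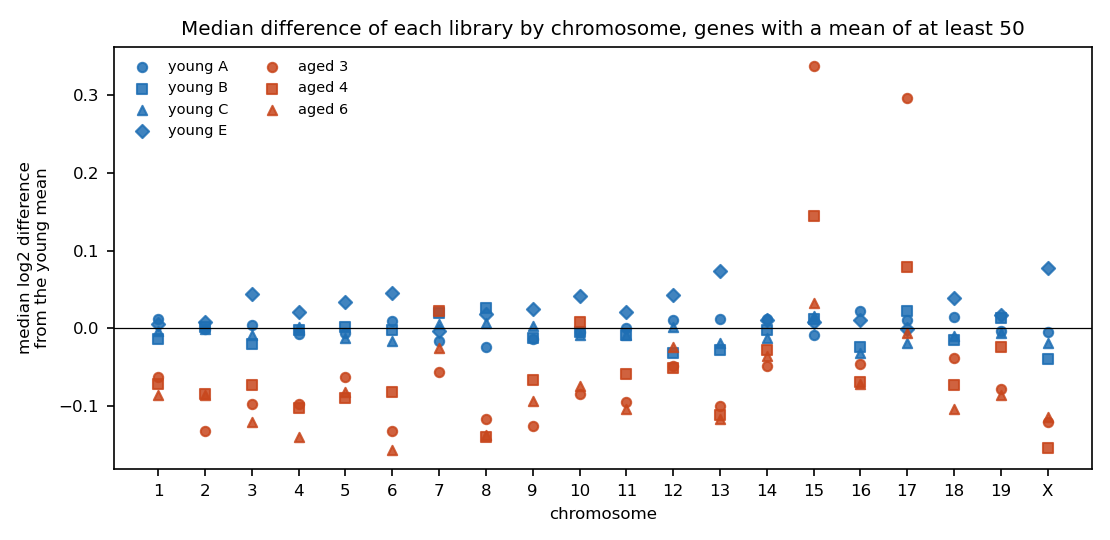
Median, over genes averaging 50 or more normalized counts, of each library's log2 difference from the young mean, by chromosome (young in blue, aged in orange, marker shape giving the replicate). Aged libraries lie below the young ones on most chromosomes, and aged replicate 3 stands at 0.34 on chromosome 15 and 0.30 on chromosome 17.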

How the data were processed

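Per the submitters' processing notes, the authors used fastp, STAR, featureCounts 1.5.0-p3, DESeq2 1.20.0 and the build GRCm38; for order, parameters, annotation and strand setting, nothing was given in the sources used here. The deposited values are normalized counts per gene and library, a signal scaled by the authors. Each value was a whole multiple of 1 number per library (100% within a tolerance of 1e-06), so whole reads were recovered, and a floor of 3 reads equals 1.85 to 3.84 normalized counts. Such floors allow for counting error alone: without molecular identifiers, 2 reads may stem from 1 molecule.

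Values as log2(normalized count + 1) were tested with limma-trend (R 4.3.3, limma 3.58.1) over 10 libraries in 3 groups, where the gene mean was at least 10, with Benjamini-Hochberg adjustment at 0.05. On this scale fold changes of genes with few counts are understated. Alternatives were pseudocounts of 0.5 and 5, other filters, TMM scaling, a total without Gm26917, mitochondrial, immunoglobulin and globin genes, the 7 wild-type libraries alone, edgeR 4.0.16, DESeq2 1.42.0 and leaving out each library. Tested on simulated data of this comparison (67, 67 and 66 of 11506 genes changed), it called 5.97% of genes changed 1.5-fold, 47.8% of those changed 2-fold, 83.3% of those changed 4-fold and 0.00884% of the unchanged. Far fewer genes were changed there than the 3837 called in the data. Because the adjustment depends on how many genes change, these rates need not hold for the real comparison.

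Named genes are, for each list, the first 2 members tested and the called member with the largest change each way (mean of at least 50), the 12 largest rises and falls in counts and the 10 largest fold changes each way among called genes without overlap, and the 5 highest without a read in 1 group. Those that kept no direction under the alternatives, and others that repeat a list, are not described. Some further results are not reported here. Other members named were chosen after their values were seen. The members and lists were chosen with earlier results of these data known. Coordinates and exon overlaps come from GENCODE M21 on GRCm38 (98.6% of symbols matched). Promoters come from RefSeq (GRCm38.p6), with the first listed window of each symbol, matched for 8627 of 11506 tested genes.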

Additional observations from a re-analysis of the deposited data

Results flagged for a closer look

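In 9 of 217 genes 1 of the 4 young libraries stood apart from the other three by Dixon's test at its 95% critical value, which chance would pass in about 1 in 20 groups. Young replicate E was the highest for Fn1 (247959 normalized counts against a young median of 200143) and Hmox1 (389 against 285), and the lowest for Timd4 (718 against 1761). Young replicate C was the highest for mt-Nd5 (6658 against 4532), Fosb (153 against 43.3), Col1a1 (90.1 against 2.47), Aldh1a1 (8.41 against 0.581) and Myo1f (1026 against 986). Young replicate B was the lowest for Rn7sk (12746 against 22851).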

How the results depend on the processing

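With the rescaled total, 2736 genes were called higher and 1417 lower, 529 of the latter by over 2-fold. Testing all 36939 genes with a mean above 0 gave 1447 genes higher by over 2-fold, and a minimum mean of 50 (7528 genes) gave 416 higher and 513 lower by over 2-fold. Fewer or more genes tested set those numbers in part. With that minimum mean, mitosis genes called lower numbered 14 in place of 36, replication genes called lower 12 in place of 22 and T cell genes called higher 3 in place of 23. Over all genes, 2846 of the main calls stayed in that test and 2835 of them were kept. Leaving out each library gave 1170 to 1757 genes higher, 1593 to 2414 lower, 701 to 973 higher by over 2-fold and 533 (without aged replicate 3) to 1128 lower by over 2-fold. The edgeR quasi-likelihood test called 1821 higher and 1932 lower, and DESeq2 1815 and 1925. Of the 3837 calls, 3064 were kept with the rescaled total, 3579 under TMM scaling, 3470 with 7 libraries, 2665 without aged replicate 3 and 2709 without aged replicate 6, and 0 turned direction in any alternative run. Among the 217 genes named in the text, 16 lost their call without aged replicate 3 and 11 without aged replicate 6. No paired analysis was possible because the young (A, B, C and E) and aged (3, 4 and 6) libraries share no replicate number. Depth limits calls among genes with few reads, since the shallowest library held 2663744 reads.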
